A study of Mus musculus with 5 samples.

Results

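At E18.5 a part of the mouse hindlimb myonuclei still transcribed more of the embryonic myosin heavy chain gene Myh3 than of the neonatal gene Myh8, and these Myh3-dominant nuclei are described here. Barcodes were kept with 400 to 25000 unique molecules of RNA (UMIs), less than 10% mitochondrial UMIs and fewer than 70000 open chromatin (ATAC) counts. Myonuclei were the kept nuclei in which Ttn, Neb, Trdn and Ryr1 together gave at least 1.5% of the UMIs, and those with at least 10 UMIs of Myh3 and Myh8 together were scored. A scored nucleus was Myh3-dominant where Myh3 gave at least 50% of that sum, and it was set against Myh8-dominant nuclei, in which Myh8 gave at least 80%. This gave 504 Myh3-dominant nuclei of the 21156 nuclei kept in the whole series. They were 323 of the 1337 scored nuclei of wild type (WT) muscle at E18.5 and 181 of the 839 scored nuclei of Cacna1s knockout (KO) muscle of the same age. The Myh8-dominant nuclei numbered 626 in WT and 383 in the KO, and the 388 WT and 275 KO nuclei in between entered neither set.

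Myosin heavy chains are the motor proteins of the sarcomere. The genes of the fast and developmental isoforms lie side by side in 1 cluster, and in limb muscle they come on in turn: Myh3 in the embryo, Myh8 in the fetus and the newborn, and the adult fast genes Myh2, Myh1 and Myh4 later, whereas the slow gene Myh7 lies elsewhere in the genome. A muscle fiber holds many nuclei, which can differ in age and in their place along the fiber, since new myoblasts fuse with it as it grows.

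The study followed hindlimb muscle of C57bl6n mice, freed of skin and bone, with an assay that reads nuclear RNA and open chromatin of the same nucleus (10x Multiome), in 1 library per group. The WT E18.5 library pooled 14 hindlimbs, and the KO E18.5 library pooled 26 hindlimbs of Cacna1s-/- fetuses, which carry a KOMP allele that deletes coding sequence of Cacna1s in the whole animal and are paralysed. Cacna1s encodes the L-type calcium channel subunit that senses voltage in excitation-contraction coupling. WT libraries of E14.5 (56 hindlimbs), P5 (8) and the adult (4) are used only to place the E18.5 nuclei. In all libraries nuclei were sorted by PCM1, a protein of the myonuclear envelope, and the positive and the negative sort went into the assay at the same volume, so the share of myonuclei in a library is set by the sort. With 1 library per group no difference between groups has a replicate check, no p-value is given, and each 95% interval covers counting error only.

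The E18.5 libraries held 35521496 UMIs in WT and 49913899 in the KO. The Myh3-dominant nuclei summed to 2886200 UMIs and 2741473 ATAC counts in WT and to 2351145 and 1048758 in the KO. Their median depth was 8523 UMIs in WT and 12419 in the KO, above the 6967.5 and 10448 of the Myh8-dominant nuclei. Of 10 genes listed as myonuclear markers 4 are genes of the rule. The other 6 (Dmd, Acta1, Mybpc1, Tnnt3, Cacna1s and Actn2) gave 19540 of every 1000000 UMIs (counts per 1000000, CPM) in the WT and 18680 in the KO Myh3-dominant nuclei, against 1098 and 1800 in the kept nuclei below the myonuclear limit. The 39 markers of other cell types in 9 lists gave 1680 CPM in WT and 780 in the KO, against 1965 and 889 in the Myh8-dominant nuclei and 8610 and 4947 in the other kept nuclei. These lists leave out 6 muscle stem cell markers, at 134 CPM in the WT Myh3-dominant against 76.1 in the Myh8-dominant nuclei. In the KO they stood at 264 against 209, and in the other kept nuclei at 280 and 471. The 4 myoblast and cycling markers, also left out, stood at 32.9 against 104.7 in WT and 89.7 against 128 in the KO. The part of such cells in other genes was not tested. At the single-list level, macrophage markers stood at 119 CPM in the WT Myh3-dominant nuclei against 67.4 in the Myh8-dominant ones and at 199.9 against 69.0 in the KO, where 48.6% and 49.5% of the UMIs of the macrophage gene F13a1 in the Myh3-dominant nuclei came from 1 nucleus of each library, and endothelial markers at 15.6 against 56.5 and at 56.6 against 94.3. The doublet caller Scrublet marked 11.1% of the WT and 15.5% of the KO Myh3-dominant nuclei, and 18.7% and 18.54% of the Myh8-dominant ones. WT and KO E18.5 shared 23 barcode sequences, within the 17 to 47 shared by any pair of libraries.

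The nuclei were chosen by their Myh3, Myh8, Ttn, Neb, Trdn and Ryr1 UMIs, so the values of Myh3 and Myh8 given here are a description only. Myh3-dominant nuclei were 24.2% of the scored nuclei in WT (exact Clopper-Pearson 95% interval 21.9% to 26.5%) and 21.6% in the KO (18.8% to 24.5%). At E14.5, 635 of 769 scored nuclei (82.6%) met the rule, at P5 17 of 974 (1.75%), and none of the 4429 adult myonuclei had enough UMIs of the 2 genes to be scored. The E18.5 nuclei therefore lay between a stage in which most nuclei were Myh3-dominant and a stage in which few were. Summed over the sets, Myh3 stood at 1846 CPM in the WT Myh3-dominant and 406 in the WT Myh8-dominant nuclei, and at 1527 and 419 in the KO. Myh8 stood at 875 against 5658 CPM in WT and at 709.9 against 4523 in the KO. The Myh3-dominant nuclei of E14.5 had nearly the same level of Myh3, 1904 CPM, and less Myh8, 422 CPM. The rule sets a floor for Myh3 in both sets, so this likeness is no independent result. For too few UMIs of the 2 genes it left 1040 of 1809 myonuclei unscored at E14.5, against 226 of 1563 in WT E18.5. Kept nuclei that are not myonuclei had 46.8 CPM of Myh3 in WT and 49.1 in the KO. The sum of Myh3 and Myh8 was small in the E18.5 Myh3-dominant nuclei, with a median of 20 UMIs a nucleus in WT and 25 in the KO, against 43 and 50 in the Myh8-dominant nuclei. The median share of the members was 66.7% in both libraries. There was no gap at the threshold, since 52 WT and 39 KO nuclei had shares of 50% to 55%, and 51 and 23 lay just below, at 45% to 50%. The sources do not say how reads that fit several myosin genes were counted, so levels of these close relatives carry that uncertainty.

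**Figure D1:**
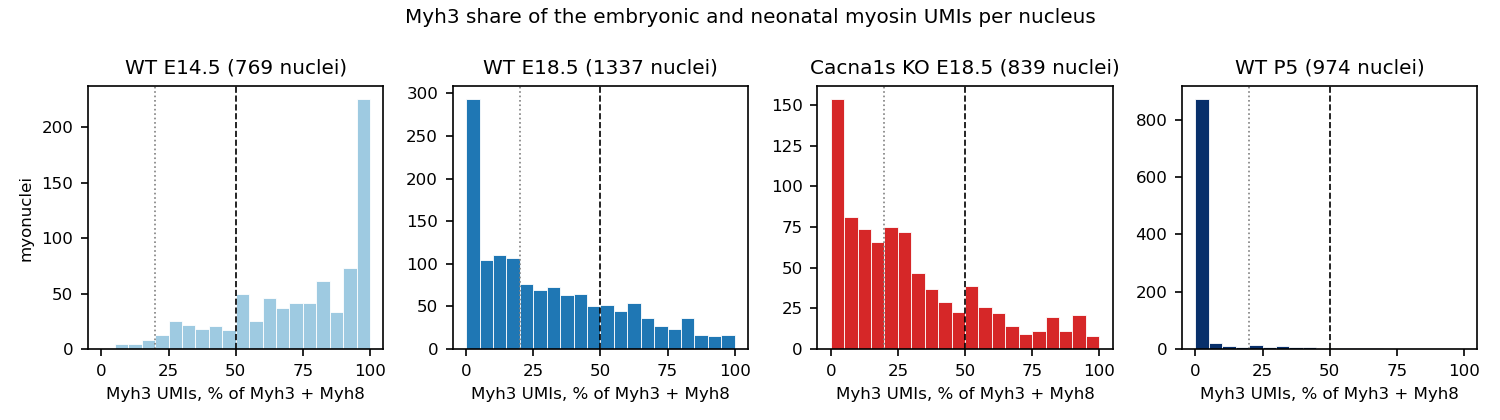
Number of scored myonuclei (y axis) by the Myh3 share of their Myh3 and Myh8 UMIs in percent (x axis, bins of 5 points), with 1 panel for each of WT E14.5, WT E18.5, Cacna1s KO E18.5 and WT P5. The dashed line is the 50% limit of the Myh3-dominant set and the dotted line the 20% limit of the Myh8-dominant set, and the 2 E18.5 libraries spread over the whole range while E14.5 lies mostly right of 50% and P5 mostly below 5%.

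The sequences around the starts of both genes are shown because these promoters drive the RNA that defines the set. They are the RefSeq promoter windows of GRCm38.p6, 250 bases before to 50 bases after the start, both on the plus strand, with E-boxes (CANNTG, the motif of myogenic bHLH factors) and TATA boxes (TATAAA) in capitals, searched on both strands.
Myh3, chr11:67078050-67078349: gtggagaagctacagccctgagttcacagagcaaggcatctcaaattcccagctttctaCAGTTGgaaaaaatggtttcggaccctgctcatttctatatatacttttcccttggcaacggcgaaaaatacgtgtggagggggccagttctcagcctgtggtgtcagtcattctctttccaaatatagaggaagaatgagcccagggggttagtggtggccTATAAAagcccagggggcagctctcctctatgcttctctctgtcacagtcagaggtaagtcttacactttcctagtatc
Myh8, chr11:67276874-67277173: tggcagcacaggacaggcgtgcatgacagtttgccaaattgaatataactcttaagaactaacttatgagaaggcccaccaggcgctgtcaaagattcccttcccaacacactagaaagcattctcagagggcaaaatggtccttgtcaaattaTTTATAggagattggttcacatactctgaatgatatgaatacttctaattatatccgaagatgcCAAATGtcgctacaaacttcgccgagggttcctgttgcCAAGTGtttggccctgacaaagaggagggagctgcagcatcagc
The Myh3 window held 1 E-box, at -191, and a TATA box at -29. The Myh8 window held E-boxes at -32 and 6, and a TATA box only on the minus strand, at -96, written here as its reverse complement. Of 32851 RefSeq promoters, 72.3% held an E-box and 13.6% a TATA box, and a match is a description of the letters, not a binding site.

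Open chromatin over the myosin cluster was read in the same nuclei, as fragments in the peaks called in each library, and the coordinates given are those of the WT peaks (GRCm38). At the 2 promoters no peak differed by 2-fold. The peak over the Myh3 start held 46 fragments in the WT Myh3-dominant and 57.5 in the Myh8-dominant nuclei, which is 1.80-fold more per 1000000 fragments (95% interval 1.20 to 2.70), and in the KO the ratio was 1.10 (0.593 to 1.98). The peak over the Myh8 start gave ratios of 0.853 (0.655 to 1.10) in WT and 0.767 (0.517 to 1.12) in the KO, while the Myh8 RNA of the same nuclei differed 6.47-fold and 6.37-fold. Peaks away from the starts differed more. A peak 15.3 kb before the Myh3 start (chr11:67062584-67063439) was higher in the Myh3-dominant nuclei of both libraries, 3.94-fold in WT (38.5 against 22 fragments, 2.28 to 6.99) and 2.97-fold in the KO (28 against 20.5, 1.62 to 5.52).

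Between Myh3 and Myh2, a region known to hold an enhancer of the fast myosin genes, the peaks split. The 3 peaks nearest to Myh3, from 26.5 to 29.0 kb after its start, had WT ratios of 1.08, 1.11 and 1.05, and 1.04, 1.31 and 2.12 (1.14 to 3.95) in the KO. The 4 peaks from 36.8 to 47.3 kb were lower in the Myh3-dominant nuclei of both libraries. The peak at chr11:67114661-67115556 was 4.81-fold lower in WT (11.5 against 124.5 fragments, interval of the ratio 0.103 to 0.381) and 10.5-fold lower in the KO (2 against 45.5, ratio 0.0954, 95% interval 0.0112 to 0.365). The other three were 3.03-, 2.95- and 2.65-fold lower in WT and 3.52-, 2.53- and 3.38-fold lower in the KO. A peak just after Myh8, between Myh8 and Myh13 (chr11:67309016-67309927), was 7.64-fold lower in WT, with 4.5 against 77.5 fragments, and 6.28-fold lower in the KO, with 4 against 54.5. The central 300 bases of the intergenic peaks of this cluster among the most reduced regions are given here (GRCm38.p6, plus strand). The capitals mark the single match to any of 4 motifs that were marked, the E-box CAGCTG, the TEAD motif GGAATG, the NFI motif TTGGCA and the MAF motif TGCTGAC, and that match is the MAF motif on the minus strand.
36.8 kb after the Myh3 start, chr11:67114958-67115257: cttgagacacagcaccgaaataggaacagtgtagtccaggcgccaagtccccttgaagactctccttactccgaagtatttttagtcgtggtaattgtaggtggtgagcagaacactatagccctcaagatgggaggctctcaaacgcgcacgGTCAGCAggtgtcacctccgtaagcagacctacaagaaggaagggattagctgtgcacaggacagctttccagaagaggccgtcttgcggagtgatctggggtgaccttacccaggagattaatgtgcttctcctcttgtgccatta
after Myh8, chr11:67309321-67309620: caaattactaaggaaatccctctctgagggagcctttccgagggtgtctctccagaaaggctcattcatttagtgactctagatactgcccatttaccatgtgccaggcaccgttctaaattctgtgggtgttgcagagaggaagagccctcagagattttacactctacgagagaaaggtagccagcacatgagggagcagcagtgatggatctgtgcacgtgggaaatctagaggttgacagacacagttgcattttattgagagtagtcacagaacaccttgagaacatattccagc

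**Figure D2:**
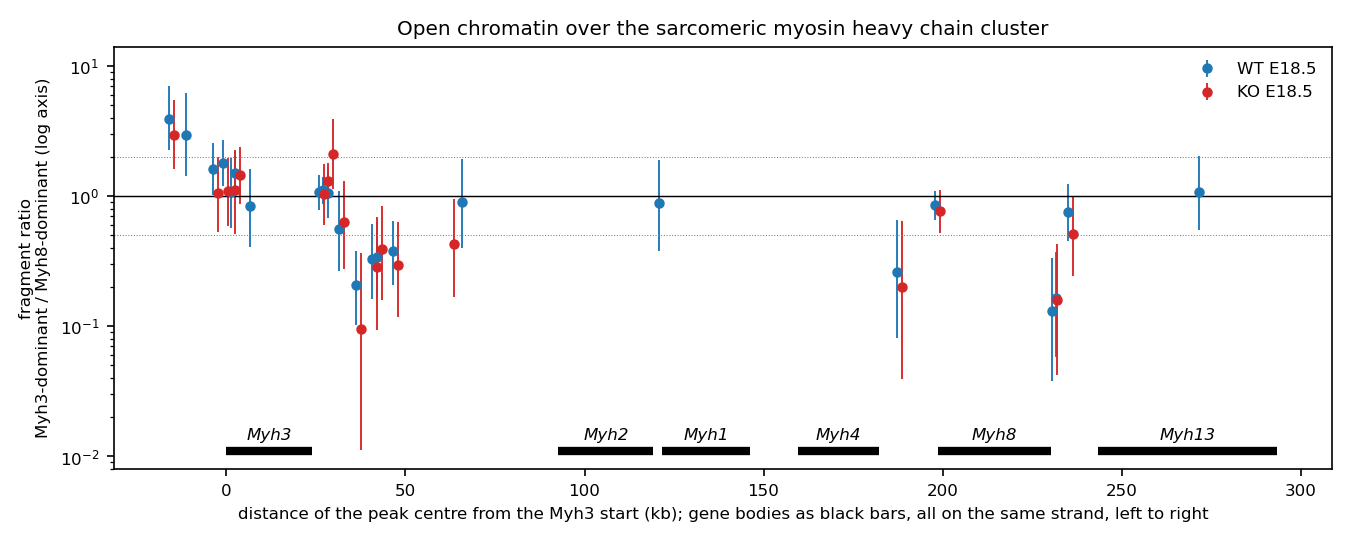
Ratio of normalised ATAC fragments, Myh3-dominant over Myh8-dominant nuclei (y axis, log scale), of each measured peak by its distance from the Myh3 start in kb (x axis), in WT (blue) and KO (red) E18.5. Bars are 95% counting intervals, black bars are gene bodies and dotted lines mark 2-fold, with the peak at -15.3 kb above 2 in both libraries and the 4 peaks from 36.8 to 47.3 kb below 0.5.

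Over all genes, UMIs were summed per set and library. A gene was measured where equal CPM would give at least 10 expected UMIs in each set, and it was called higher or lower where the CPM ratio was at least 2-fold with an exact conditional binomial interval that left out 1. In WT 1014 of 11930 measured genes were higher in the Myh3-dominant nuclei (8.5%) and 1066 were lower (8.94%), 17.4% in all, and in the KO 862 of 11290 were higher (7.64%) and 1142 lower (10.1%), 17.8% in all. The median log2 ratio over all measured genes was 0.06 in WT and -0.01 in the KO. Of the 10892 genes measured in both libraries, Myh3 and Myh8 left out, 902 were called higher in WT (8.28%) and 799 in the KO (7.34%). Higher in both were 492, which is 54.5% of the 902 and 61.6% of the 799. Called lower were 883 in WT (8.11%) and 1059 in the KO (9.72%). Lower in both were 521, which is 59.0% and 49.2% of these. The WT and KO fetuses gave separate libraries, so the KO is a repeat of the same contrast in other animals of another genotype. With the nucleus that held most of a gene's UMIs left out, 83.9% of the WT and 76.6% of the KO higher calls and 87.1% and 85.6% of the lower calls remained. Genes that lost the call are named below only with that remark. An exception are the genes called in opposite directions in the 2 libraries, for which this was not listed throughout.

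The genes highest in the Myh3-dominant nuclei of both libraries were not sarcomere genes. Prkg1, a cGMP-dependent protein kinase, stood at 11876 CPM in the WT Myh3-dominant nuclei and 1508 in the Myh8-dominant ones, and at 14803 and 751 in the KO. It was 7.88-fold (95% interval 7.68 to 8.07) higher in WT and 19.7-fold (95% interval 19.01 to 20.4) in the KO. The difference between the libraries was not tested, since the intervals cover counting error only. Dmrt1, a transcription factor best known from the testis, had 293 UMIs against 30 in WT, 17.3-fold (95% interval 11.8 to 26.0), and 318 against 4 in the KO, 146-fold (95% interval 56.5 to 539). Cdh8, a cadherin, went from 29.8 CPM in the Myh8-dominant to 311 in the Myh3-dominant nuclei of WT and from 5.56 to 450.4 in the KO. Both Dmrt1 and Cdh8 were near absent from the KO Myh8-dominant nuclei.

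The other genes of the 15 that led in both libraries have varied known roles. Samd5, of no well known role in muscle, was 13.1-fold higher in WT and 9.77-fold in the KO. The semaphorins Sema3e and Sema6a, which are guidance cues, were 12.1-fold and 7.40-fold higher in WT and 7.12-fold and 8.63-fold in the KO, and Sema6a was abundant, at 1459 and 1519.7 CPM. Clstn2 and Tmem108, both known from synapses, were 10.1-fold and 7.82-fold higher in WT and 7.58-fold and 10.5-fold in the KO. Extracellular proteases were also present: Pappa2, which cleaves IGF-binding proteins, was 11.2-fold and 23.0-fold higher in WT and KO, and the aggrecanase Adamts5 7.01-fold and 6.66-fold. The purinergic-type receptor gene P2ry10b was 9.67-fold and 10.7-fold higher. The choline transporter-like gene Slc44a3 had ratios of 8.65 and 15.3, the aspartoacylase gene Aspa 9.59 and 10.2, the methyltransferase gene Nnmt 9.98 and 15.8, and the RNA-binding protein gene Csdc2 9.58 and 10.5. None of these genes entered the rule, but all were read in the nuclei that the rule split, so their ratios describe the sets.

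**Figure D3:**
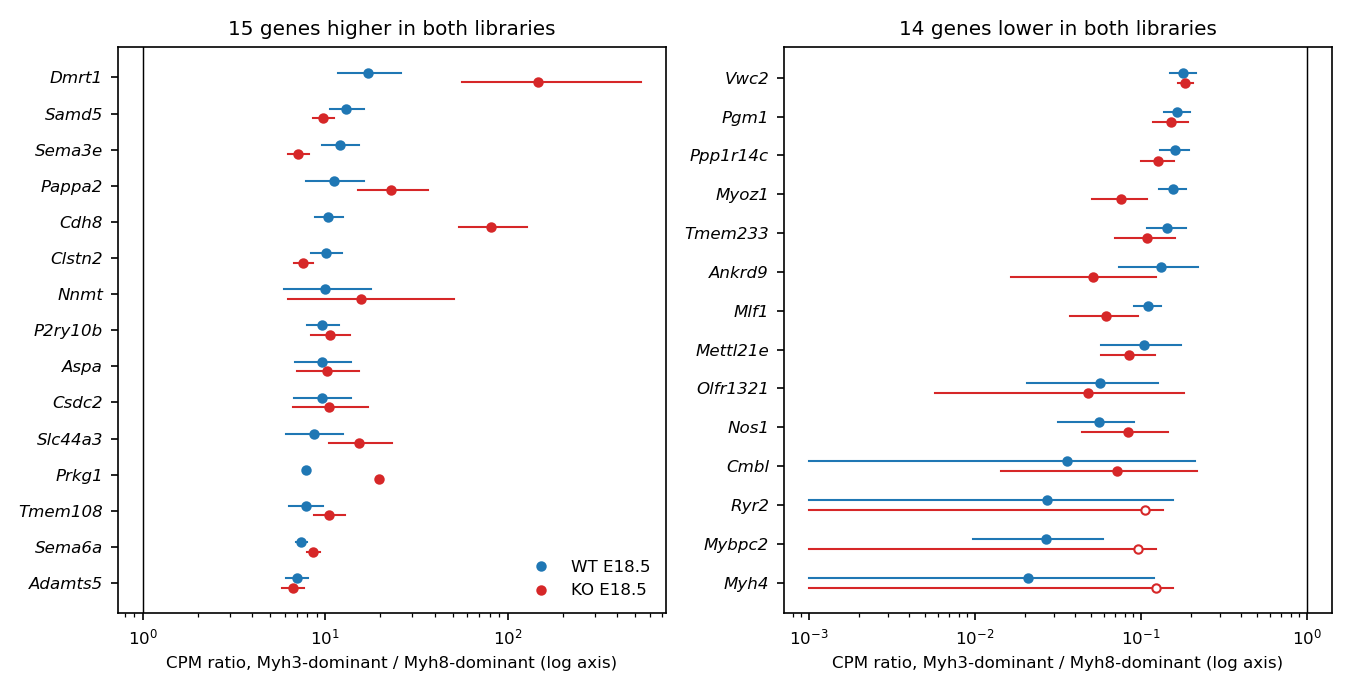
CPM ratio, Myh3-dominant over Myh8-dominant nuclei (x axis, log scale), of the 15 leading genes higher and the 14 leading genes lower in both E18.5 libraries, without Myh8, which chose the sets. Points are WT (blue) and KO (red), bars 95% counting intervals and open circles ratios of KO genes with 0 UMIs in the Myh3-dominant nuclei set to 3 counts, intervals are drawn down to 0.001, and Prkg1, Dmrt1 and Cdh8 have larger ratios in the KO than in WT.

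The share of nuclei with a UMI was compared after thinning each nucleus to 4000 UMIs, which left 307 Myh3-dominant and 562 Myh8-dominant nuclei in WT and 179 and 367 in the KO. Nuclei led by mesenchymal markers, 1691 in WT and 1179 in the KO, served as a background. Their median depth before thinning was 6220 and 7658 UMIs, against 8774 and 12464 in the Myh3-dominant and 7290.5 and 10825 in the Myh8-dominant nuclei. Prkg1 was found in 91.2% of the WT Myh3-dominant nuclei (92.8% without thinning), 58.9% of the Myh8-dominant and 49.6% of the mesenchymal ones, and in 89.9%, 35.4% and 57.3% in the KO. Prkg1 thus marked nearly every Myh3-dominant nucleus, but its share in the other nuclei was high as well. Dmrt1 was found in 21.5% (32.2% without thinning) against 1.42% in WT, with 0 of the 1691 mesenchymal nuclei. The exact 95% interval of that share reaches 0.218%. In the KO it was found in 25.1% of the Myh3-dominant nuclei, (37.4% without thinning), none of the 367 Myh8-dominant and 0.170% of the mesenchymal ones. Jam2, an adhesion molecule used in myoblast fusion, was found in 56.0%, 8.90% and 3.78% of the WT Myh3-dominant, Myh8-dominant and mesenchymal nuclei. Casq1, a calcium buffer of fast fibers, went the other way, in 16.3%, 73.1% and 0.828%. The WT nuclei between the sets were near the Myh3-dominant ones in some genes. Dmrt1 was found in 17.8% of these 354 nuclei, and Cdh8 in 17.2%, against 18.2% of the Myh3-dominant ones. Jam2 was found in 41.2% and Casq1 in 32.8% of them. In the KO, Dmrt1 was found in 8.92% of the 269 nuclei in between.

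Across 7 bins of the Myh3 share the leading genes did not all behave in the same way. In WT, Prkg1 climbed from 771 CPM in nuclei with a share under 10% to 7038 at 20% to 35%, 9787 at 35% to 50% and 13137 at 50% to 65%, and stood at 10286 above 80%. In the KO it went from 359 to 3518, 8836, 13734 and 15368 CPM in the same bins. Most of the increase thus lay below the 50% limit in both libraries. Dmrt1 peaked in WT at 127 CPM in the 50% to 65% bin and was 69.9 above 80%, whereas in the KO it was 103 and 161. The fast gene Mybpc2 ran the other way, from 105 CPM under 10% to 31.6, 12.5 and 6.66 in the next 3 bins and 3.04 just above 50%. Casq1 fell from 557 to 39.7 CPM in WT and from 204 to 25.7 in the KO over the 7 bins. In these genes the sets were the ends of a graded range.

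**Figure D4:**
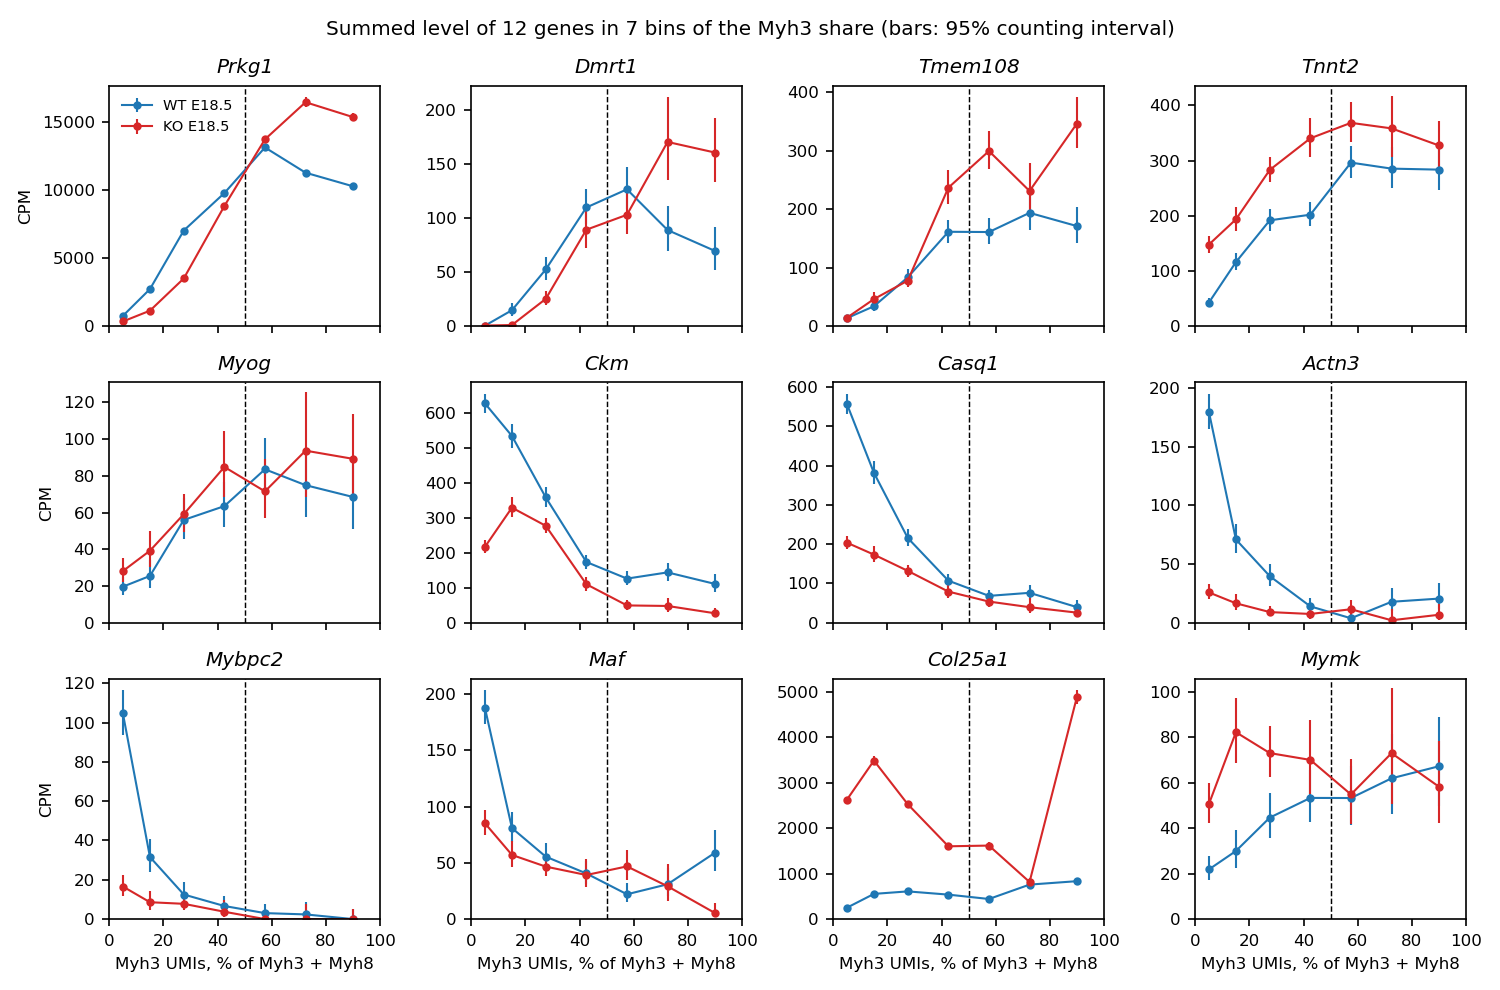
Summed CPM (y axis, linear, from 0) of 12 genes in 7 bins of the Myh3 share of the Myh3 and Myh8 UMIs (x axis, percent, points at bin centres), in WT (blue) and KO (red) E18.5, with 95% counting intervals. The dashed line is the 50% limit, and Prkg1, Dmrt1 and Tnnt2 are higher on its right, Casq1, Ckm and Mybpc2 on its left.

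The 14 leading genes lower in both libraries include genes known from mature fast fibers. Mybpc2, the fast myosin-binding protein C, had 6 UMIs in the WT Myh3-dominant and 396 in the Myh8-dominant nuclei, 37.3-fold (95% interval 17.0 to 102) lower. In the KO it had 0 against 57, which is 10.3-fold lower when 0 is set to 3 counts over the set. Myh4, the fastest adult myosin heavy chain, had 1 UMI against 84 in WT, a ratio of 0.0210 (95% interval 0.000526 to 0.120). In the KO it had 0 against 45, 8.17-fold lower with 0 set to 3 counts. Nos1, the neuronal nitric oxide synthase of the fiber membrane, was 17.97-fold (95% interval 10.96 to 31.7) lower in WT and 11.9-fold in the KO. Myoz1, a Z-disc protein of fast fibers, stood at 45.7 against 294 CPM in WT and 12.8 against 169 in the KO. These 4 genes were picked from those called lower in both libraries, so their shared direction follows from the choice.

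Other genes of this group act in metabolism or have no well known part in the sarcomere. Pgm1, phosphoglucomutase, was 6.03-fold lower in WT and 6.597-fold in the KO. Mlf1 stood at 42.3 against 386 CPM in WT and 8.51 against 138 in the KO. The folds of Tmem233 were 6.97-fold and 9.22-fold, those of Ppp1r14c, a phosphatase inhibitor, 6.25-fold and 7.86-fold, those of the methyltransferase gene Mettl21e 9.58-fold and 11.7-fold, and those of Vwc2, a secreted BMP antagonist, 5.55-fold and 5.41-fold, all lower. Ryr2, the ryanodine receptor best known from the heart, had 1 UMI against 65 in WT and 0 against 52 in the KO.

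Among the sarcomere genes, the developmental isoforms were higher and the adult fast genes lower. Of the 6 developmental isoforms measured in WT, 5 were higher and none lower (median log2 ratio 1.81), and of 5 measured in the KO 4 were higher (1.30). Tnnt2, the troponin T of heart and developing muscle, stood at 290.0 against 71.8 CPM in WT, 4.04-fold (95% interval 3.57 to 4.58), and at 353 against 167 in the KO, 2.12-fold (95% interval 1.91 to 2.34). The embryonic light chain Myl4 was 4.80-fold and 3.34-fold higher, Mybph, a myosin-binding protein H, 3.02-fold and 2.46-fold, and the smooth muscle actin Acta2 4.50-fold and 4.90-fold. Actc1, the cardiac actin of developing muscle, had ratios of 0.956 and 1.30 and was not called. The fifth gene of WT, Myl6b, rested on 21 UMIs and lost the call without its highest nucleus.

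Of the 17 adult fast genes, 14 were lower and none higher in WT (median log2 ratio -2.20), and 13 of 16 measured were lower in the KO (-1.96), against 8.94% and 10.1% of all genes. Actn3, the alpha-actinin of fast fibers, stood at 12.1 against 139 CPM in WT, 11.5-fold (95% interval 8.19 to 16.6) lower, and at 8.08 against 22.2 in the KO, 2.75-fold (95% interval 1.67 to 4.77) lower. The fast calcium pump Atp2a1 was 4.54-fold and 3.82-fold lower, the muscle creatine kinase Ckm 4.61-fold and 6.10-fold, and fast troponin T Tnnt3 3.07-fold and 2.82-fold. Pvalb, the calcium buffer parvalbumin, had 0 UMIs in the WT Myh3-dominant and 98 in the Myh8-dominant nuclei, 18.49-fold lower with 0 set to 3 counts. It was not measured in the KO, where the 2 sets had 0 and 2. The fast light chains Mylpf and Myl1 differed less, 1.79-fold and 1.48-fold lower in WT and 1.75-fold and 1.24-fold in the KO, and were not called.

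Slow fiber genes were higher in the WT Myh3-dominant nuclei and mostly not in the KO ones. Of 12 measured in WT, 10 were higher and 1, Casq2, was lower (median log2 ratio 1.496), and of 9 measured in the KO 1, Tnnc1, was higher and none lower (-0.06). Myh7, the slow myosin heavy chain, stood at 194 against 57.1 CPM in WT, 3.41-fold (95% interval 2.95 to 3.94), and at 37.4 against 38.9 in the KO, a ratio of 0.962. The slow light chain Myl2 had 196 UMIs against 74 in WT and 1 in each KO set. Tnnc1, the slow and cardiac troponin C, was 5.34-fold higher in WT and 3.90-fold in the KO, and the slow troponin I Tnni1 2.73-fold and 1.78-fold, the latter short of the limit.

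Some of the slow genes were high in few of the members. In 44 of the 323 WT Myh3-dominant nuclei (13.6%) and in 9 of the 181 KO ones (4.97%) Myh7 gave at least 10% of the Myh3, Myh8 and Myh7 UMIs. The WT ones had 503 CPM of Myl2 and 396 of the slow troponin T Tnnt1, against 1.20 and 91.5 in the other members. They had less of several genes that led in both libraries: Prkg1 stood at 4135 against 13062 CPM, Dmrt1 at 15.6 against 115, Sema6a at 190.3 against 1653, and Cdh8 at 0 against 358. Their level of Ckm was 284 against 103 CPM. The Myh7-rich members thus stood apart from the others in these genes. With such Myh7-rich nuclei left out of both sets, the median of the slow genes in WT was 0.38 in place of 1.496 and that of the adult fast genes -2.78 in place of -2.20, while Tnnt1, Tnni1, Tnnc1 and Atp2a2 were still higher, 4 of the 10 slow genes measured, and Casq2 lower.

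A further part of the members carried myotendinous junction genes, which act where the fiber ends meet the tendon. Of the 9 genes of this list, 5 were higher in both libraries and none was lower (median log2 ratio 1.53 in WT and 2.09 in the KO): Col22a1, Ankrd1, Nav3, Clstn2 and Slc24a2. Col22a1, the collagen of the junction, was 5.69-fold (95% interval 4.92 to 6.61) higher in WT and 6.13-fold (95% interval 4.87 to 7.78) in the KO, and Nav3, a microtubule-binding guidance protein, 5.43-fold and 4.54-fold. Nuclei with Col22a1 at 0.05% of their UMIs or more, a limit chosen after the values were seen, were 41 of the WT members (12.7%) and 11 of the KO members (6.08%). In WT they had 1031 CPM of Clstn2 against 108 in the other members, and less of Samd5 (33.9 against 296), Sema3e (33.9 against 223), Col25a1 (61.1 against 737) and Myog (29.4 against 85.9). Members with neither feature were the large majority, 241 in WT (74.6%) and 161 in the KO (89.0%), and in these Prkg1 stood at 14271 and 15729 CPM and Dmrt1 at 122 and 140.1.

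Of the transcription factors, the 3 that the study tied to fetal muscle were higher in both libraries. Klf5, a zinc finger factor, stood at 291 against 50.2 CPM in WT, 5.81-fold (95% interval 5.04 to 6.70), and at 416 against 90.8 in the KO, 4.58-fold (95% interval 4.07 to 5.16). Myog, the bHLH factor of myoblast differentiation, was 3.43-fold and 2.52-fold higher and Tead4 3.01-fold and 2.05-fold. The study chose its lists of stage factors on these libraries, so they are no independent evidence of a direction. Of the 5 factors tied to adult muscle, Maf and Thrb were lower in WT and Maf and Tef in the KO. Maf went from 148 CPM in the Myh8-dominant to 34.0 in the Myh3-dominant nuclei of WT, 4.36-fold (95% interval 3.53 to 5.44) lower, and from 75.05 to 30.2 in the KO, 2.49-fold (95% interval 1.92 to 3.26) lower. Thrb, with 17 and 63 UMIs, lost the call without its highest nucleus. Of the 5 neonatal factors, Nfic and Prrx1 were lower in WT and Prrx1 in the KO, and none of the 4 embryonic factors was called in either.

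Among 20 general fiber type and muscle factors 1 was higher and 8 were lower in each library, with medians of -0.56 and -0.86. Over all genes 8.94% were lower in WT and 10.1% in the KO. Myf6, the myogenic factor of mature fibers, was 3.26-fold and 4.53-fold lower, and the homeobox factor Six4, which acts on fast genes, 2.94-fold in WT and 3.06-fold in the KO. Ppargc1a, a coactivator of mitochondrial genes, was 3.61-fold (95% interval 3.09 to 4.24) lower in WT and 7.09-fold (95% interval 5.81 to 8.73) in the KO. Sox6, a repressor of slow genes, stood at 899 against 1885 CPM in WT and 1079 against 2159 in the KO, right at the limit, and lost the KO call without its highest nucleus. The single higher factors were Prox1 in WT, 2.35-fold, and Vgll2 in the KO, 2.05-fold, which lost its call in that check. Myod1 was not called, at 12.1 and 15.9 CPM in WT.

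Of 13 measured genes of myoblast fusion, 5 were higher in WT and 3 in the KO, and none was lower (medians 0.18 and 0.20). Over all genes 8.5% were higher in WT and 7.64% in the KO. Jam2, Jam3 and the M-cadherin Cdh15 were higher in both, Jam3 2.73-fold and 2.12-fold and Cdh15 2.79-fold and 3.15-fold. The genes of the membrane fusion proteins Mymk and Mymx were called in WT. Mymk stood at 59.2 against 24.9 CPM, 2.38-fold (95% interval 1.88 to 3.02), and Mymx had 26 against 11 UMIs. In the KO the 2 sets had 59.5 and 63.0 CPM of Mymk and 30 and 48 UMIs of Mymx, a ratio of 1.15 (95% interval 0.702 to 1.85). Both KO sets were thus near the Mymk level of the WT Myh3-dominant nuclei.

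Neuromuscular junction genes showed few differences in WT. Of 13 measured, Phldb2, a scaffold of the postsynaptic membrane, was 3.40-fold higher, and Rapsn, which clusters acetylcholine receptors, 2.05-fold, a call that was lost without the highest nucleus. Over all genes 8.5% were higher in WT. In the KO 2 of the junction genes were lower in the Myh3-dominant nuclei, beside 10.1% of all genes. Chrna1, an acetylcholine receptor subunit, stood at 30.8 against 27.3 CPM in WT and 40.8 against 96.8 in the KO, and Musk, the receptor kinase that organises the junction, at 116 against 144 and 129 against 434. Chrng, the fetal receptor subunit, was not called in either, at 91.5 against 61.0 CPM in WT and 117 against 147 in the KO.

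Metabolic genes are read against the 8.94% of all genes lower in WT and 10.1% in the KO. Of 16 glycolysis and glycogen genes, 11 were lower in WT and 9 in the KO, and none was higher (medians -1.45 and -1.15). Phkg1, a subunit of phosphorylase kinase, was 7.58-fold (95% interval 5.99 to 9.72) lower in WT and 5.21-fold (95% interval 3.89 to 7.11) in the KO, the muscle enolase Eno3 4.91-fold and 4.53-fold, and the glycogen phosphorylase Pygm 3.92-fold and 3.62-fold. Of 13 fatty acid genes, 4 were lower in WT and 10 in the KO (-0.77 and -1.38), among them Cpt1b, the mitochondrial gate for fatty acids, 5.56-fold and 8.17-fold lower, and the lipoprotein lipase gene Lpl, 2.14-fold and 6.67-fold. Of 17 mitochondrial oxidation genes 5 and 3 were lower and none higher, with medians of -0.66 and -0.70.

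Of 17 genes of excitation-contraction coupling measured in WT, 1 was higher and 5 lower (median -0.40), and of 16 in the KO none was higher and 6 lower (-0.71). The shares of all genes that were lower were 8.94% and 10.1%. In WT the calsequestrins Casq1 (7.74-fold) and Casq2 (2.02-fold), Atp2a1, the pump inhibitor Sln (3.01-fold) and Stim1 (2.46-fold), a calcium sensor of the store, were lower, and the slow pump Atp2a2 was 2.50-fold higher. Cacna1s itself was not called in WT: it stood at 255 CPM in the Myh3-dominant and 162 in the Myh8-dominant nuclei, a ratio of 1.57. Ryr3, a ryanodine receptor of developing muscle, was 1.18-fold lower in WT, which was not called, and 2.17-fold lower in the KO.

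Egr1, an immediate early gene, was higher in the Myh3-dominant nuclei of both libraries, with 94 UMIs against 28 in WT, 5.93-fold (95% interval 3.85 to 9.40), and 279 against 40 in the KO, 12.8-fold (95% interval 9.17 to 18.3). Jun was not called in either, Fos was not called in WT and not measured in the KO, and Junb, not measured in WT, was higher in the KO with 18 against 14 UMIs, a call lost without its highest nucleus. Markers of cycling cells went the other way in WT: Mki67 stood at 7.97 against 29.8 CPM and Top2a at 11.1 against 47.1. In the KO the values were 27.6 against 35.7 and 39.6 against 54.9 CPM. The part of cycling nuclei or doublets in these values was not tested.

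Open chromatin was compared over all peaks of each library. In WT 2028 of 33774 measured peaks were higher in the Myh3-dominant nuclei (6%) and 2587 lower (7.66%), 13.7% in all, and in the KO 548 of 15163 were higher (3.61%) and 1253 lower (8.26%), 11.9% in all. Of 14940 pairs of overlapping peaks (at least 1 base) measured in both libraries, 593 were called higher in WT (3.97%) and 528 in the KO (3.53%). Higher in both were 202, which is 34.1% of the 593 and 38.3% of the 528. Called lower were 606 pairs in WT (4.06%) and 1218 in the KO (8.15%). Lower in both were 361, which is 59.6% and 29.6% of these. Chromatin and RNA of the same nuclei pointed the same way more often than not. Peaks at the starts of genes with higher RNA were above 1 in 67.1% of cases in WT and 71.2% in the KO, and at the starts of genes with lower RNA in 26.6% and 26.4%, against 49.3% and 52.5% for genes not called. The differences at starts were small, with median log2 ratios of 0.16 and -0.25 in WT and 0.22 and -0.31 in the KO.

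The peak that led the regions higher in both libraries lay in an intron of Slc44a3, whose RNA was also among the leading genes. At chr3:121474486-121475376 it held 50 fragments against 13.5 in WT, 8.34-fold (95% interval 4.50 to 16.5), and 41.5 against 11 in the KO, 8.19-fold (4.14 to 17.7). An intergenic peak nearest to Mrpl42 (chr10:95471678-95472794) was 7.32-fold higher in WT and 8.06-fold in the KO, and one nearest to Kif26a (chr12:112236777-112237683) 3.58-fold and 8.41-fold. The central 300 bases of these peaks (GRCm38.p6, plus strand) are shown because 9 of the 10 leading higher peaks hold CAGCTG, an E-box of myogenic factors, in such a window. Capitals mark the matches to the same motifs. The TEAD motif lies on the minus strand and reads CATTCC here, and the NFI motif reads TGCCAA.
Slc44a3 intron, chr3:121474781-121475080: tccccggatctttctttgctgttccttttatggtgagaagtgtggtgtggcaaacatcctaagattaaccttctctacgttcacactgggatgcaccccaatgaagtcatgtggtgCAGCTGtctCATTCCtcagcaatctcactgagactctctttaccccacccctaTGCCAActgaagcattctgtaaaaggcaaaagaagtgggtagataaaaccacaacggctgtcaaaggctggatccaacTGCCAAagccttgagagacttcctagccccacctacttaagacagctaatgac
nearest Mrpl42, chr10:95472086-95472385: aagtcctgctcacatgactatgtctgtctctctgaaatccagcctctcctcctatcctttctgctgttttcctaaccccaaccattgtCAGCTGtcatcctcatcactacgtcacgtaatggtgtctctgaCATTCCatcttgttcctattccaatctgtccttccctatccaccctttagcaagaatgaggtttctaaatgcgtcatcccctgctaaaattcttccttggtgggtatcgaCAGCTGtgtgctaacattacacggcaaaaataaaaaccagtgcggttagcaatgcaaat
nearest Kif26a, chr12:112237080-112237379: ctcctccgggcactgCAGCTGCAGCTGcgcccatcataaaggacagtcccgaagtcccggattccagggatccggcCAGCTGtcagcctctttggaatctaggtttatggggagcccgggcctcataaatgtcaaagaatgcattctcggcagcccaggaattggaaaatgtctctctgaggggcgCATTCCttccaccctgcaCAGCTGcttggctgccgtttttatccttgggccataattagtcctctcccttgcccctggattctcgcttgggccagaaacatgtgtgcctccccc
Of the 10 leading lower peaks 4 hold CAGCTG. The TEAD motif was in 5 of the 10 leading higher and 4 of the 10 leading lower peaks. The windows shown were picked after their values were seen, and each holds it. The Kif26a window holds CAGCTG in 4 places.

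The same letters were counted over all measured peaks more than 1 kb from coding gene starts, on both strands of the central 300 bases. In WT, CAGCTG was in 66.2% of the 1903 higher peaks, 35.7% of the 2342 lower ones and 43.2% of all 22205. In the KO it was in 64.2% of 399 higher, 48.1% of 1044 lower and 50.3% of all 7063 peaks. GGAATG was in 35.2%, 19.2% and 21.8% of the WT and 34.1%, 21.4% and 23.6% of the KO peaks, and the KLF motif GGGTGTGG in 7.36%, 3.16% and 4.23% and in 7.02%, 4.31% and 4.73%. The E-box, TEAD and KLF letters were thus more frequent in the higher peaks than in all peaks of both libraries.

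Other letters were more frequent in the lower peaks. The nuclear receptor motif AGGTCA was in 16.7% of the higher, 28.7% of the lower and 19.8% of all WT peaks, and in 17.0%, 26.5% and 18.7% of the KO peaks. TTGGCA was in 23.1%, 32.2% and 23.6% of the WT peaks, TCAGGTT, a motif of Six4, in 3.31%, 8.16% and 4.75%, the MEF2 motif in 5.20%, 8.50% and 6.37%, and TGCTGAC, the MAF motif, in 6.57%, 10.4% and 7.72%. In the KO the values of these 4 were 23.6%, 31.7% and 23.0%, then 1.75%, 7.09% and 4.62%, then 4.26%, 10.7% and 6.82%, and for TGCTGAC 4.76%, 8.52% and 7.79%. The AP-1 motif TGANTCA differed little in WT, at 13.8%, 14.2% and 12.4%, and the RUNX motif TGTGGTT at 5.73%, 5.81% and 5.58%. CAGCTG is a special case of CANNTG, which was in 94.1%, 90.01% and 86.2% of the WT peaks, and median GC content was 51.7%, 52.7% and 53.3%.

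The last comparisons ask how the Myh3-dominant nuclei of the KO differ from those of WT. Cacna1s had 735 UMIs in the WT Myh3-dominant and 1 in the KO ones, and 827 and 2 in the Myh8-dominant nuclei, as the labels require. Of 11253 measured genes 458 were higher in the KO Myh3-dominant nuclei (4.07%) and 746 lower (6.63%), 10.7% in all, and in the Myh8-dominant nuclei 876 of 13014 (6.73%) and 904 (6.95%), 13.7% in all. The medians over all genes were -0.07 and -0.02. Single nuclei weighed more here: without the highest nucleus of each gene 67.9% of the higher and 76.1% of the lower calls remained. Both sets of each library come from the same 2 libraries, so the values of the 2 sets are given side by side.

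Of the slow genes 6 of 12 were lower in the KO Myh3-dominant nuclei and none higher (median -1.16). Of the adult fast genes 4 of 13 were lower and none higher (-0.62). Myh7 was 5.19-fold (95% interval 4.14 to 6.58) lower there and 1.47-fold lower in the Myh8-dominant nuclei, and the first KO over WT ratio divided by the second was 0.282 (95% interval 0.210 to 0.379). The tropomyosin Tpm3 was 4.12-fold (95% interval 3.57 to 4.78) lower against 1.12-fold. Myl2 went from 196 UMIs to 1 and Myl3 from 70 to 0, which makes Myl3 at least 19.01-fold lower. Of the members 44 in WT and 9 in the KO were rich in Myh7, and without such nuclei, a removal that uses Myh7 itself, Myh7 had 21 UMIs in the KO and 13 in WT and Myl3 had 0 and 2. Outside this list, Xirp2, an actin-binding protein of the fiber ends and cell contacts, was 41.5-fold (95% interval 24.1 to 78.4) lower and 14.4-fold in the Myh8-dominant nuclei, the calcium-activated channel gene Kcnn2 6.53-fold and 5.03-fold, and the factor Creb5 6.96-fold and 5.05-fold. Col1a1, a mesenchymal marker, was 10.0-fold and 5.09-fold lower, beside mesenchymal marker sums of 1354 CPM in the WT and 385 in the KO Myh3-dominant nuclei, and 37.1% of the WT Myh3-dominant UMIs of Col1a1 came from 1 nucleus.

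The KO Myh3-dominant nuclei were higher in few listed genes. Col25a1, a membrane collagen needed for muscle innervation, stood at 634 CPM in WT and 2483 in the KO, 3.92-fold (95% interval 3.72 to 4.13), and in the Myh8-dominant nuclei at 362 and 2940.1, 8.11-fold (95% interval 7.73 to 8.52). By level, the Myh3-dominant nuclei were above the Myh8-dominant ones in WT and below them in the KO, in neither by 2-fold. Its KO level was uneven over the bins of the Myh3 share, with 1618 CPM at 50% to 65%, 817 at 65% to 80% and 4888 above 80%, and it was found in 54.7% of the KO Myh3-dominant nuclei, 1 of which held 20.2% of its UMIs. Dlgap2, a synaptic scaffold gene, was 5.59-fold (95% interval 4.37 to 7.21) higher in the Myh3-dominant and 1.40-fold in the Myh8-dominant nuclei, with a ratio of ratios of 3.98 (95% interval 2.35 to 6.76). Shisa9, an AMPA receptor partner, went from 10 to 133 UMIs, and from 29 to 43 in the Myh8-dominant nuclei. Hephl1, a ferroxidase gene, was 5.66-fold and 3.02-fold higher. Endothelial markers, 56.6 against 15.6 CPM, and cycling markers, 89.7 against 32.9, were also higher in the KO than in the WT Myh3-dominant nuclei. Of the KO UMIs of the endothelial gene Flt1, 51.2% came from 1 nucleus, and the part of such nuclei in other genes was not tested.

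The 14 genes of denervation and atrophy are known to change, not all upward, when muscle loses its nerve or activity. The study describes Hdac9, which is among them, as down-regulated in the KO. Of the 14 genes, 10 were higher in the KO Myh8-dominant nuclei and none lower (median 1.12), against 6.73% and 6.95% of all measured genes. In the Myh3-dominant ones 2 were higher and 1 lower (0.40), against 4.07% and 6.63% of all measured genes. Gadd45a and Cdkn1a, 2.17-fold and 2.05-fold higher in the Myh8-dominant nuclei, lost that call without their highest nucleus. Musk had a KO over WT ratio of 1.11 in the Myh3-dominant and 3.02 in the Myh8-dominant nuclei, a ratio of ratios of 0.369 (95% interval 0.309 to 0.440). For Chrna1 the values were 1.32 and 3.55, and 0.373 (95% interval 0.264 to 0.527), and for Fbxo32, an ubiquitin ligase of atrophy, 1.42 and 7.78, and 0.182 (95% interval 0.107 to 0.311). The intervals of all 3 leave out 1, but they cover counting error only, and the difference between the sets was not tested. Foxo1 was higher in both sets, 2.14-fold and 2.28-fold, and Foxo3, at 2.05-fold and 2.10-fold, lost its Myh3-dominant call without the highest nucleus. Of 7 developmental genes, which the study chose on the same libraries, 2 were higher in the Myh3-dominant nuclei, Col25a1 and Fstl4, and 6 in the Myh8-dominant ones (medians 0.50 and 1.34). Tnnt2 was 1.22-fold higher, which was not called, and 2.33-fold.

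**Figure D5:**
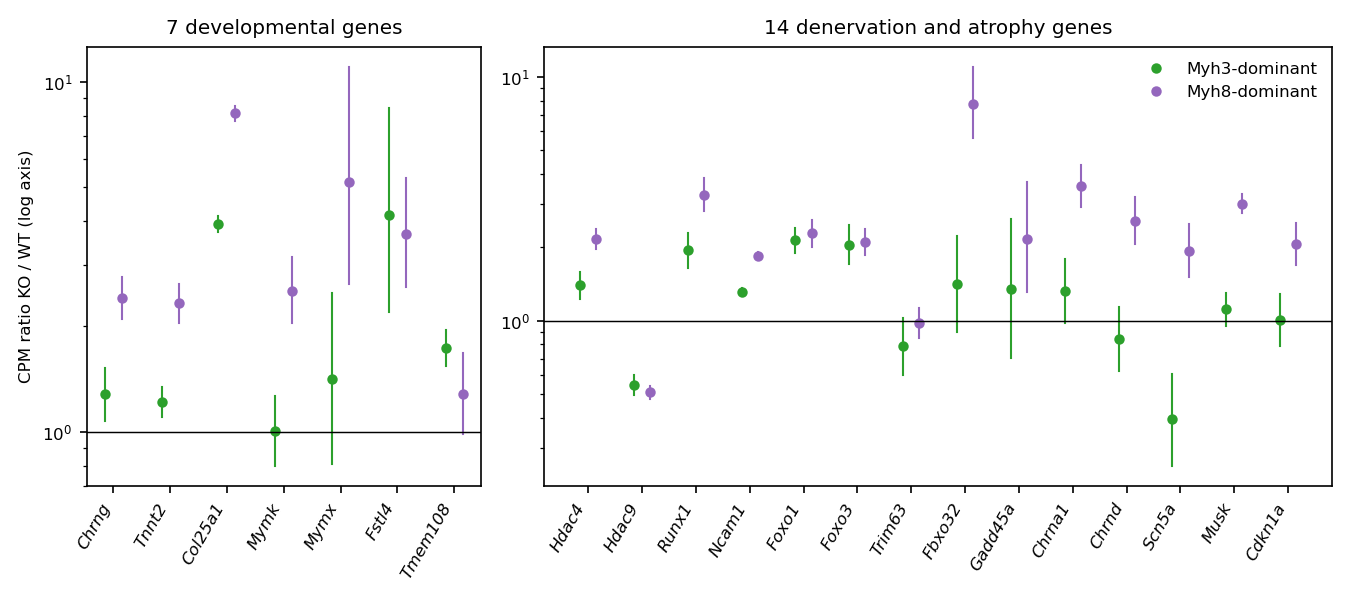
CPM ratio, KO over WT E18.5 (y axis, log scale), in Myh3-dominant (green) and Myh8-dominant (purple) nuclei, for 7 developmental genes (left) and 14 denervation and atrophy genes (right), with 95% counting intervals. Musk, Chrna1 and Fbxo32 lie at 1.11, 1.32 and 1.42 in the Myh3-dominant and at 3.02, 3.55 and 7.78 in the Myh8-dominant nuclei, while Foxo1 lies near 2 in both.

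Finally the WT Myh3-dominant nuclei of E18.5 were set against the 635 of E14.5, which met the same rule. The rule used Myh3, Myh8, Ttn, Neb, Trdn and Ryr1 at both ages, and at E14.5 it scored 769 of 1809 myonuclei. Of 11730 measured genes 1253 were higher at E18.5 (10.7%) and 1022 lower (8.71%), 19.4% in all, with a median log2 ratio of 0.14 over all genes, and the list medians below should be read against it. Prkg1 went from 4896 CPM at E14.5 to 11876, and Dmrt1 from 14 UMIs to 293, 32.2-fold (95% interval 18.9 to 59.6) higher. Cdh8 and Sema3e, by contrast, were at 312 and 193 CPM at E14.5 and 311 and 194 at E18.5. Of 12 adult fast genes 6 were higher at E18.5 and none lower (1.02), among them Ckm, 5.01-fold, and Casq1, 2.16-fold. Of the fetal factors Myog and Tead4 were higher, 2.08-fold and 2.55-fold, and of the neonatal factors Nfib (3.602-fold), Nfic and Nfix (5.45-fold). Maf went from 9.46 to 34.0 CPM.

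Some of the genes with the largest falls are best known from neurons. Fstl4, a follistatin-like protein, was 53.9-fold (95% interval 31.4 to 102) lower, the receptor phosphatase Ptprt 86.4-fold and Xkr4 25.7-fold, and Dscaml1, an adhesion molecule of neurons, had 560 UMIs at E14.5 and 1 at E18.5. Tmem108 and Clstn2, which marked the Myh3-dominant nuclei within E18.5, were 5.93-fold and 6.87-fold lower than at E14.5, and Col22a1 was 3.01-fold lower. The sets of the 2 ages differed in make-up. Without Col22a1-rich nuclei 361 of the 635 members of E14.5 were left, and without Myh7-rich nuclei 427. Both kinds of nuclei were a smaller part of the E18.5 members, and their part in these falls was not tested. In CPM, Tmem108 stood at 1027 in the Myh3-dominant nuclei of E14.5, 173 in those of E18.5 and 22.2 in the Myh8-dominant nuclei of E18.5.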

How the data were processed

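The authors aligned the reads with Cell Ranger ARC 2.0.0 to mm10, intronic reads included, called peaks per library and deposited filtered matrices of raw counts, UMIs for genes and cut sites for peaks. The members, gene lists and named genes were chosen with earlier results of these data known. Named genes were the members of the lists, the rule's genes and the leading genes called in each contrast and in both libraries.

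UMIs were summed per set and library and expressed as CPM. Peak counts were divided by 2 to give fragments, since most were even. Ratios have exact conditional binomial intervals, levels exact Poisson intervals, shares exact binomial intervals and ratios of ratios intervals on a log scale, all at 95% and for counting error only. Genes and peaks needed 10 expected counts in each set, calls 2-fold, and sums of 0 were set to 3 counts. Doublets were marked with Scrublet in scanpy 1.11.5 and kept, since leaving them out was an alternative. It marked none at P5 and was not used there. Python 3.11.15 with numpy 2.4.6, scipy 1.17.1, pandas 2.3.3, pysam 0.24.0 and matplotlib 3.10.9 was used. The sums and calls were tested on simulated data. With 1 library per group no p-value was computed. A few results are not reported here.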

Additional observations from a re-analysis of the deposited data

Results flagged for a closer look

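In 11 genes the difference between the Myh3-dominant and the Myh8-dominant nuclei was called in opposite directions in the WT and the KO library, out of 10892 genes measured in both, and 10 of them are described here. The difference between the libraries was not tested, and there is 1 library of each. Whether each of these calls stays without the gene's highest nucleus is not given here. Lower in WT and higher in the KO were 7 genes, of which 6 follow. Cdh6, a cadherin, had log2 ratios of -1.40 in WT (9 against 42 UMIs) and 1.88 in the KO (28 against 14). Sorcs1, a sorting receptor, had -2.25 (5 against 42) and 1.29 (36 against 27). Negr1, a neuronal adhesion molecule, had -1.57 (21 against 110) and 1.36 (102 against 73), the largest UMI sums of the 6. Dok6, a receptor kinase adaptor, had -1.66 and 1.18, Rgcc, a cell cycle regulator, -1.12 and 1.10, and Med28, a Mediator subunit, -1.10 and 1.14. Higher in WT and lower in the KO were the other 4. Maob, monoamine oxidase B, had 1.73 (30 against 16 UMIs) and -1.14 (23 against 93), Lrp1b 1.16 (77 against 61) and -1.25 (14 against 61), Dglucy 1.32 and -1.31, and Tmtc4 1.06 and -1.08.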

How the results depend on the processing

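No paired analysis was possible because each group is 1 library and no p-value was computed. Of 300 main values under an alternative 265 stayed within 1.5 times or within their interval and 35 did not. Cuts of the set moved its size: with a Myh3 share of at least 70% the members were 10.1% of the scored nuclei in WT, 9.54% in the KO, 62.0% at E14.5 and 0.411% at P5, with at least 20 myosin UMIs 17.1%, 17.1% and 78.0%, and with 3% of UMIs from the myonuclear genes 20.1% and 17.2%. At E14.5 the share was 79.4% without Myh7-rich and 73.2% without Col22a1-rich nuclei. Genes called between KO and WT fell from 1204 to 786 with 20 expected UMIs. Peaks called in WT fell from 4615 to 1026 at the 70% share, 2090 with 20 myosin UMIs and 1876 with the 3% limit, and in the KO from 1801 to 313, 791 and 291, and to 1169 without doublets. List medians (log2) in WT moved at the 70% share for slow genes to 2.11, adult fast genes to -2.46 and myotendinous genes to 1.91, with 20 myosin UMIs for slow genes to 1.83 and developmental isoforms to 2.18, with the 3% limit for slow genes to 1.86, and without Myh7-rich nuclei for slow genes to 0.38, adult fast genes to -2.78, myotendinous genes to 1.08 and developmental isoforms to 2.15. In the KO they moved for myotendinous genes to 1.27 at the 70% share, 1.40 with at least 400 peak counts and 1.09 with no upper UMI limit (added after seeing the data), for fatty acid genes to -1.91 at the 70% share, for developmental isoforms to 1.08 with the 3% limit and for glycolysis genes to -0.87 with no upper UMI limit. Of the named genes 6 values turned their sign, all on small sums. Without Myh7-rich nuclei these were Myh7 -0.29 (13 against 31 UMIs), Myl3 -1.50 (2 against 11) and Ankrd2 -0.50 (16 against 44) in WT and Myh7 0.85 (21 against 13) and Myh7b 1.60 (57 against 21) between KO and WT, and with the 3% limit Lrrtm4 -2.20 (1 against 7) between KO and WT. For 20 further values both sums were at most 3 UMIs, or 1 was 0 and the floor alone gave the sign, and no value is given. Of the WT gene calls 48.8% were higher, and 62.8% without doublets and 60.1% without nuclei rich in other cell types' markers. The causes were not tested. The small member sums, 1 library per group and shares of many genes held by single nuclei limit all values.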

Other observations

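Imprinted growth genes, which are known to be high in fetal tissue and to fall after birth, were not called in either library: 13 of 15 measured were below 1 in WT and 15 of 15 in the KO, with median log2 ratios of -0.41 and -0.28 between Myh3-dominant and Myh8-dominant nuclei. Against E14.5, H19 and Igf2 were higher in the Myh3-dominant nuclei of E18.5 and the median of the list was 0.68, beside 0.14 over all genes. Of the mitochondrial oxidation genes, all 17 were below 1 in both libraries, and Ogdh and Idh3a, enzymes of the citric acid cycle, were called lower in both. Of the genes of muscle spindle fibers, Myh6 and Myh7b were higher in the WT Myh3-dominant nuclei, and Etv4 and Calcrl lower in the KO ones, with medians of 0.07 and -0.10.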
